A study of Apis mellifera with 10 samples.

Results

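The cuticle protein genes of the honey bee (Apis mellifera) are described here in antennae taken from newly emerged adults. There were 27 such genes among 12332 bee genes counted: 4 apidermins, 18 genes of the CPR family, 2 of the CPF family and 3 of the Cpap3 family. They were chosen by symbol in the RefSeq gene table of the assembly Amel_HAv3.1, and each symbol was matched to a row of the counts by linkage group, start and end. The symbols Apd-3 and apd-3 differ in case alone and belong to separate genes, and both were kept. The orco_KO bees were injected as embryos with a CRISPR ribonucleoprotein directed at orco (5 libraries, numbered 3, 5, 9, 11 and 12), and the control bees were injected with buffer (5 libraries, numbered 3, 4, 5, 6 and 7). All animals were raised in the laboratory, with antennae dissected no later than 24 hours after emergence. Strain, sex, caste and the number of bees per library are not given in the sources used here, nor is the share of edited cells in the injected animals. Since nothing says that libraries came from separate animals, the p-values refer to the spread among libraries only, which may be technical. With 1 sampling window for all libraries, no change over time after emergence could be measured.

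Insect cuticle is a layer of chitin fibres and proteins that epidermal cells secrete, and the set of proteins made changes through each moult under the control of ecdysone. Proteins of the CPR family carry the Rebers and Riddiford motif, a conserved stretch that binds chitin, and CPF proteins carry a different conserved motif. Cpap3 proteins resemble peritrophins and hold repeated chitin-binding domains. Apidermins are small hydrophobic cuticle proteins described from the honey bee. In the antenna, cuticle forms the body wall and the porous shafts of the olfactory hairs.

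Assigned counts ranged from 8577416 to 18308425 in orco_KO libraries and from 9497211 to 23453690 in control libraries. Levels are given as CPM, a gene's reads relative to the normalized size of its library. The targeted gene, Or2 (the orco coreceptor), was at 22.9 ± 9.33 CPM in orco_KO and 382 ± 82.6 CPM in controls (SD, n = 5 each), with every orco_KO library below every control. All 8 antennal markers looked for were among the genes tested, their summed level being 13130 to 22420 CPM in orco_KO and 7771 to 32750 CPM in controls. With edgeR 2 of them were lower, Or2 and Or11, and none was higher, while DESeq2 called 2 higher and 2 lower. Or11 was at 1.52 ± 0.283 CPM in orco_KO and 7.92 ± 2.48 CPM in controls (SD, n = 5 each). Obp2 made up the largest part of the sum, with means of 10380 CPM in orco_KO and 8869 CPM in controls. Over all tested genes, among controls replicates 6 and 7 lay farthest out on the first principal component (44.8 and 49.0, against 15.1 to 27.0 in the other controls), as earlier results of these data had shown, and replicate 3 on the second (-58.0, against -22.4 to 26.7 in the other controls). All orco_KO libraries had negative values on the first component. Replicate 5 of orco_KO lay farthest out of all libraries, at -52.6, against -39.8 to -15.4 in the other orco_KO libraries. Higher calls over all genes numbered 684 without control replicate 3 and 200 without control replicates 6 and 7, against 421 with every library. Values without control replicates 6 and 7 are given where they change the call of a cuticle protein gene or a marker list.

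The genes lay in groups along the genome. CPR17, CPR18, CPR21, CPR22 and CPR14 lay within 82930 bp on linkage group 2 (positions 2920896 to 3003825), with 1 other gene among them. The apidermins lay within 35995 bp on linkage group 4 (4454035 to 4490029), and CPR1, CPR2, CPR3 and CPR4 within 29150 bp on linkage group 11 (6505053 to 6534202) with no other gene between them. CPR13, CPR12 and CPR28 shared 24780 bp of linkage group 6, and CPF2 and CPF1 lay 88 bp apart on linkage group 15, on opposite strands. Reads were counted by strand, and 26 of the 27 genes overlapped no other gene on their own strand. The exception was Cpap3-b, which shared 85 bp (3.08% of its span) with LOC410913.

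Levels differed widely between the genes. Per kilobase of gene span, introns included, Apd-2 had the highest mean over all libraries at 130.0 CPM, and CPR14 had 101 CPM, CPR19 89.2 CPM and Apd-1 29.2 CPM per kilobase. The most abundant Cpap3 genes were Cpap3-b at 19.7 and Cpap3-c at 13.7 CPM per kilobase. CPF2 was at 0.945 CPM per kilobase and was the higher of the CPF pair. Because introns count towards the span, this scale understates genes with long introns.

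Reads were almost absent for 6 genes, which did not pass the filter on low counts and were not tested. For CPR13 and CPR21 there was no read in orco_KO, and there were 2 reads each in controls, all in control replicate 6. CPF1 had 1 read over all orco_KO libraries and 12 over all controls, CPR2 had 2 and 11, CPR18 had 8 and 11, and CPR1 had 22 and 43. With so few reads, a difference between the groups was not assessed for these genes. CPR18 and CPR21 lie between the weakly expressed CPR17 and the more abundant CPR22 of the linkage group 2 array, and CPR1 and CPR2 lie beside CPR3 and CPR4.

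**Figure D1:**
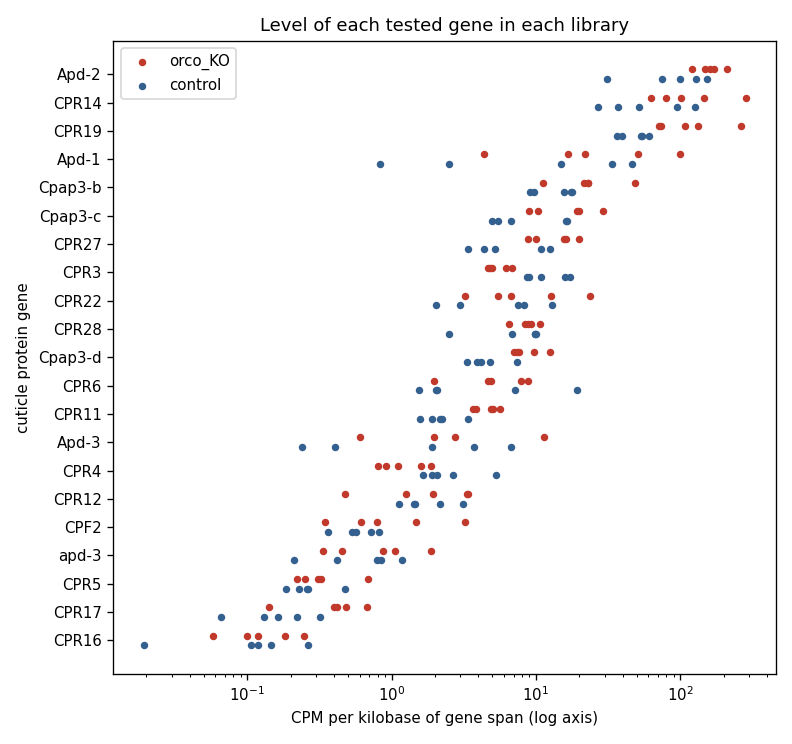
Level of the 21 tested cuticle protein genes in CPM per kilobase of gene span (log axis), sorted by the mean over 10 libraries. Each point is 1 library, and in each gene's row the orco_KO points are drawn in a line over the control points, whatever their level. Apd-2, CPR14 and CPR19 lead, and Apd-1 spreads most widely among the abundant genes. Apd-3 had no read in orco_KO replicate 3, which a log axis cannot show.

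The comparison asked whether cuticle protein transcripts differed after injection against orco. CPR19, CPR11 and Cpap3-d rose and CPR3 fell. The remaining 17 of 21 tested genes did not pass the threshold of 0.05 on p-values of edgeR's quasi-likelihood test, adjusted over 9222 genes by the Benjamini-Hochberg method. Higher calls made up 4.57% of all genes tested and lower calls 7.98%, against 3 of 21 (14.3%) and 1 of 21 (4.76%) for the cuticle protein genes. With no adjustment for the number of genes, 8 had a p below 0.05 and a higher level and 2 had a lower one (11.7% and 14.3% of all genes). The log2 fold change of orco_KO over control was positive for 18 of 21, against 44.8% of all genes, and its median was 0.74, against -0.06 over all genes. The same 3 genes, CPR3, CPR4 and CPR6, had negative values under each of 3 scalings of the libraries. DESeq2 called 6 higher and 2 lower (8.46% and 8.94% of all genes), adding CPR17, CPR27 and Cpap3-b to the higher and CPR4 to the lower ones, and limma-voom called 3 higher and 1 lower (5.61% and 7.99% of all genes). In whole antennae, fewer cells of a type and less RNA per cell cannot be told apart.

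**Figure D2:**
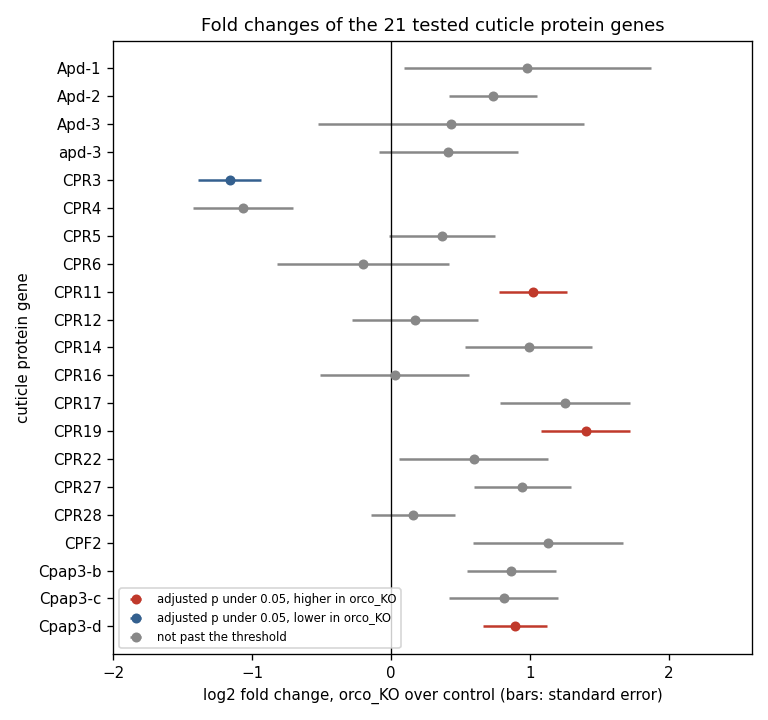
Log2 fold change of orco_KO over control for the 21 tested genes, with its standard error as a bar. Red marks CPR11, CPR19 and Cpap3-d, blue marks CPR3, and grey marks genes that did not pass the threshold. Most points lie to the right of 0.

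CPR19, a CPR family gene on linkage group 4 (8665666 to 8667293), had the largest change that passed. Its level was 175, 426, 116, 119 and 218 CPM in orco_KO replicates 3, 5, 9, 11 and 12, against 63.8, 88.7, 86.9, 99.1 and 59.8 CPM in control replicates 3, 4, 5, 6 and 7. Each orco_KO library lay above each control, and orco_KO replicate 5 was the highest. The mean was 211 ± 127 CPM in orco_KO and 79.6 ± 17 CPM in controls (SD, n = 5 each), a log2 fold change of 1.40 (SE 0.32; edgeR adjusted p = 0.0102). Without orco_KO replicate 5 it was 1.00.

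CPR11, on linkage group 9 (10049487 to 10051187), was much less abundant. It had 8.57, 9.63, 8.30, 6.23 and 6.58 CPM in orco_KO replicates 3, 5, 9, 11 and 12, against 3.23, 5.80, 3.82, 3.71 and 2.697 CPM in control replicates 3, 4, 5, 6 and 7. There was no overlap between the groups, and control replicate 4 came closest to the orco_KO libraries. The log2 fold change was 1.03 (SE 0.24; edgeR adjusted p = 0.0129), and 0.85 with adjusted p = 0.0756 once control replicates 6 and 7 were left out together, so that the call was lost.

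CPR3, on linkage group 11 (6523732 to 6526109), was the gene that fell. It was at 16.3, 14.7, 11.9, 11.03 and 11.4 CPM in orco_KO replicates 3, 5, 9, 11 and 12, against 37.8, 41.0, 25.6, 21.1 and 20.7 CPM in control replicates 3, 4, 5, 6 and 7. Every orco_KO library lay below every control, and the orco_KO values were the tighter group. The mean was 13.1 ± 2.32 CPM in orco_KO and 29.3 ± 9.53 CPM in controls (SD, n = 5 each), a log2 fold change of -1.16 (SE 0.22; edgeR adjusted p = 0.00328). Over all tested genes, 3.76% had every orco_KO library above every control and 7.45% had every orco_KO library below. Among the cuticle protein genes these were 2 (CPR19 and CPR11) and 1 (CPR3).

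CPR4, the neighbour of CPR3 on the same strand, had 2.43, 2.01, 3.51, 4.09 and 1.75 CPM in orco_KO replicates 3, 5, 9, 11 and 12, against 11.6, 5.80, 4.16, 3.63 and 4.52 CPM in control replicates 3, 4, 5, 6 and 7. In 4 of 5 orco_KO libraries it was below all controls, and orco_KO replicate 11 overlapped control replicate 6. Its log2 fold change was -1.06 (SE 0.36; edgeR adjusted p = 0.071), with adjusted p = 0.040 by DESeq2, 0.127 by limma-voom and 0.0444 by edgeR without control replicates 6 and 7. Without control replicate 3, its highest library, it was -0.67 (edgeR adjusted p = 0.154). Reads that map to several places were not counted, so copies of near-identical sequence within this tandem array would be undercounted.

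**Figure D3:**
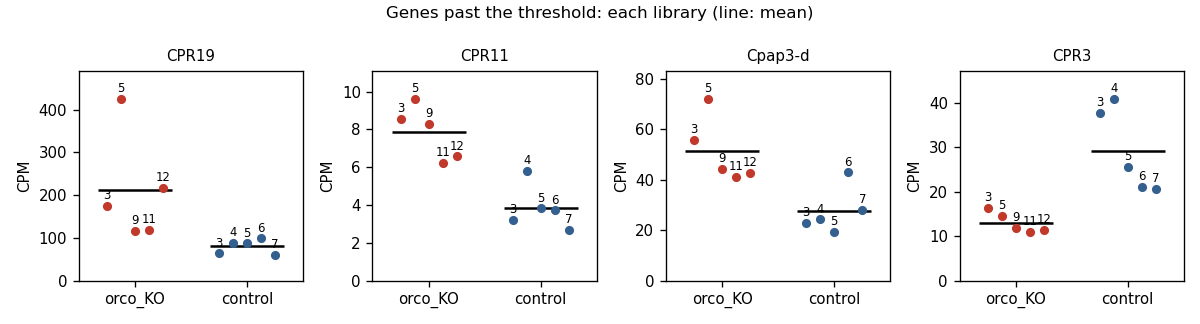
CPM of CPR19, CPR11, Cpap3-d and CPR3 in each library (points, numbered by library; line: group mean; axes start at 0). The groups are separate for CPR19, CPR11 and CPR3. For Cpap3-d, control replicate 6 at 42.9 CPM lies within the range of orco_KO.

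CPR14, the most abundant CPR gene and one whose transcript is known to follow the ecdysteroid titre in honey bee integument, was at 1330, 2585, 923, 721 and 568 CPM in orco_KO replicates 3, 5, 9, 11 and 12, against 474, 336, 246, 1157 and 867 CPM in control replicates 3, 4, 5, 6 and 7. Control replicates 6 and 7 lay within the orco_KO range, and the other controls lay below every orco_KO library. Over all libraries the log2 fold change was 0.99 (SE 0.46; edgeR adjusted p = 0.189). Without control replicates 6 and 7 it was 1.80 (SE 0.45, adjusted p = 0.0219), and without orco_KO replicate 5 it was 0.55 (adjusted p = 0.479).

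CPR22, which lies beside CPR14 in the same array, was at 34.7, 63.8, 8.77, 14.9 and 18.2 CPM in orco_KO replicates 3, 5, 9, 11 and 12, against 20.4, 8.12, 5.52, 22.5 and 35.0 CPM in control replicates 3, 4, 5, 6 and 7. Values of both groups overlapped, and as for CPR14 the highest library was orco_KO replicate 5 and the lowest was control replicate 5. The log2 fold change of CPR22 was 0.60 (SE 0.54; edgeR adjusted p = 0.532), and 0.07 without orco_KO replicate 5. On the libraries numbered 3 and 5 alone it was 2.17 with replicate number as a block (edgeR adjusted p = 2.9e-06). Without the block it was 2.00 (edgeR adjusted p = 0.0361). CPR17, at the other end of the array, was weakly expressed, with 0.695, 3.31, 2.06, 2.35 and 1.96 CPM in orco_KO replicates 3, 5, 9, 11 and 12, against 1.075, 0.322, 1.57, 0.794 and 0.640 CPM in control replicates 3, 4, 5, 6 and 7. In 4 of 5 orco_KO libraries CPR17 was above all controls, with a log2 fold change of 1.25 (SE 0.47), and it passed with DESeq2 (adjusted p = 0.0376) and with no other fit (edgeR adjusted p = 0.102).

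CPR27, on linkage group 4, had 51.3, 49.7, 32.0, 27.8 and 63.1 CPM in orco_KO replicates 3, 5, 9, 11 and 12, against 16.5, 13.9, 10.8, 34.5 and 39.5 CPM in control replicates 3, 4, 5, 6 and 7. As with CPR14, control replicates 6 and 7 fell inside the orco_KO range and the other controls outside it. The log2 fold change was 0.95 (SE 0.35; edgeR adjusted p = 0.096, DESeq2 adjusted p = 0.0294), 1.23 without control replicate 7 (edgeR adjusted p = 0.0306) and 1.71 without both control replicates 6 and 7 (edgeR adjusted p = 0.00138).

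CPR6, on linkage group 8, changed sign with these libraries. It was at 49.6, 54.9, 30.7, 29.0 and 12.4 CPM in orco_KO replicates 3, 5, 9, 11 and 12, against 13.0, 9.73, 12.7, 45.1 and 120.2 CPM in control replicates 3, 4, 5, 6 and 7. Control replicate 7 was above every orco_KO library, while control replicates 3, 4 and 5 lay at or near the lowest orco_KO value. The log2 fold change was -0.20 (SE 0.62; edgeR adjusted p = 0.878) over all libraries and 1.58 (SE 0.40, adjusted p = 0.0223) without control replicates 6 and 7.

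The other tested CPR genes showed overlapping groups. CPR28 was at 18.6 ± 3.23 CPM in orco_KO and 16.7 ± 6.97 CPM in controls (SD, n = 5 each). CPR12, CPR5 and CPR16 had group means between 0.918 and 2.49 CPM, and their adjusted p by edgeR ranged from 0.60 to 0.98. The standard errors of the log2 fold change of these 4 genes were 0.30 to 0.54.

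All 3 Cpap3 genes had a positive log2 fold change, and 1 of them passed. Cpap3-d, on linkage group 3 (12203358 to 12209166), rose. It was at 55.9, 72.3, 44.5, 41.2 and 42.8 CPM in orco_KO replicates 3, 5, 9, 11 and 12, against 22.8, 24.3, 19.3, 42.9 and 28.0 CPM in control replicates 3, 4, 5, 6 and 7. Control replicate 6 was inside the orco_KO range and 3 orco_KO libraries were above every control. The log2 fold change was 0.89 (SE 0.23; edgeR adjusted p = 0.0190), and 1.21 without control replicates 6 and 7.

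Cpap3-c, within the same 61356 bp of linkage group 3 as Cpap3-d, was at 129, 196, 69.5, 60.2 and 133 CPM in orco_KO replicates 3, 5, 9, 11 and 12, against 36.6, 44.8, 33.3, 111 and 108 CPM in control replicates 3, 4, 5, 6 and 7. Here too control replicates 6 and 7 were inside the range of orco_KO and the other controls below it. Its log2 fold change was 0.81 (SE 0.39; edgeR adjusted p = 0.210), and 1.61 (adjusted p = 0.00901) without these controls. Cpap3-b was at 63.0, 134, 59.0, 30.8 and 63.8 CPM in orco_KO replicates 3, 5, 9, 11 and 12, against 48.2, 26.7, 25.1, 42.9 and 48.7 CPM in control replicates 3, 4, 5, 6 and 7. In 4 of 5 orco_KO libraries it was above all controls, with orco_KO replicate 11 among the controls (log2 fold change 0.87, SE 0.32; adjusted p = 0.10 by edgeR and 0.0398 by DESeq2, 0.139 by limma-voom, and 0.0305 by edgeR without orco_KO replicate 11). Without orco_KO replicate 5 the log2 fold change of Cpap3-b was 0.52 (edgeR adjusted p = 0.257).

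**Figure D4:**
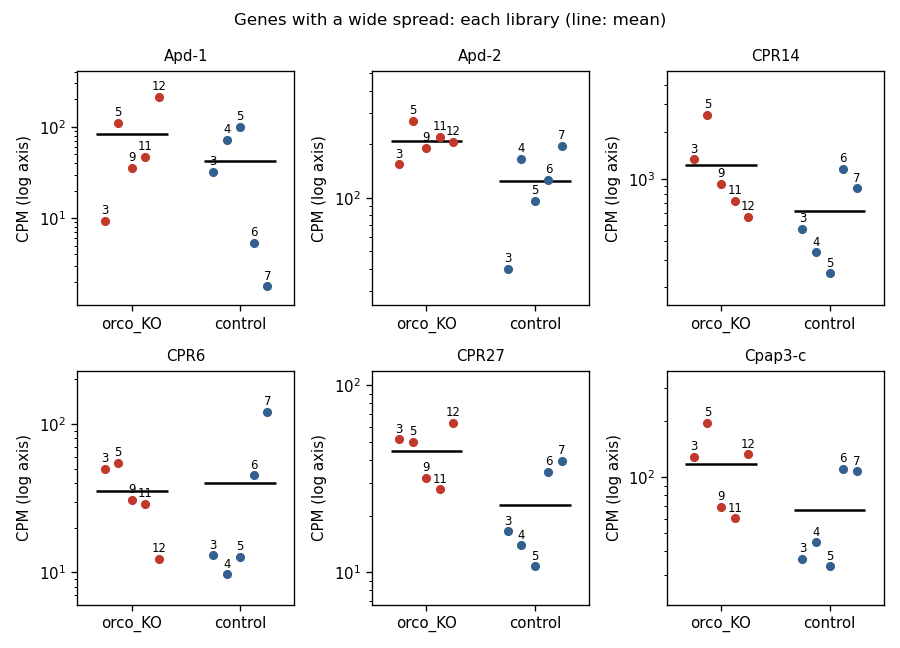
CPM on a log axis of Apd-1, Apd-2, CPR14, CPR6, CPR27 and Cpap3-c in each library (points, numbered by library; line: group mean). Control replicates 6 and 7 are the highest controls for CPR14, CPR6, CPR27 and Cpap3-c and the lowest for Apd-1.

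Over all 10 libraries none of the 4 apidermin genes passed with edgeR, DESeq2 or limma-voom. Apd-2 alone had an unadjusted p below 0.05 there (edgeR). Apd-2 was at 155, 271, 190.1, 220 and 205 CPM in orco_KO replicates 3, 5, 9, 11 and 12, against 39.9, 165, 96.2, 127 and 196 CPM in control replicates 3, 4, 5, 6 and 7. Values in orco_KO were close together, control replicate 3 was the lowest of all, and 3 orco_KO libraries were above every control. The log2 fold change of Apd-2 was 0.74 (SE 0.32; edgeR unadjusted p = 0.0370, adjusted p = 0.159). On the libraries numbered 3 and 5 alone, Apd-2 passed with edgeR. Its log2 fold change there was 1.76 with replicate number as a block (adjusted p = 1.5e-06) and 1.68 without (adjusted p = 0.0243).

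Apd-1 was the least even of the abundant genes. It was at 9.38, 109, 35.6, 46.7 and 213 CPM in orco_KO replicates 3, 5, 9, 11 and 12, against 32.1, 71.6, 99.5, 5.37 and 1.79 CPM in control replicates 3, 4, 5, 6 and 7. Within orco_KO the highest library was 22.7 times the lowest, and within controls 55.7 times, so that the difference between the groups (log2 fold change 0.98, SE 0.89; edgeR adjusted p = 0.533) was smaller than the spread inside either. Leaving out orco_KO replicate 12 gave a log2 fold change of 0.28, as did leaving out control replicates 6 and 7, and leaving out control replicate 5 gave 1.59. Apd-1 was low where CPR14 was high in control replicates 6 and 7, but both were high in orco_KO replicate 5.

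Apd-1 and Apd-2 lie 516 bp apart on opposite strands, and their ratio differed between libraries. Of the reads on these neighbours, Apd-1 held 5.72% (95% Wilson interval 4.63% to 7.06%) in orco_KO replicate 3 and 50.9% (49.7% to 52.2%) in orco_KO replicate 12. In controls its share ran from 0.906% (0.693% to 1.18%) in replicate 7 to 50.9% (49.0% to 52.7%) in replicate 5. The intervals cover counting error only. Apd-3, the gene next to Apd-1, was also lowest in orco_KO replicate 3 (no read) and highest in orco_KO replicate 12 (9.59 CPM), and in controls it ran from 0.202 CPM in replicate 7 to 5.61 CPM in replicate 4. The gene apd-3 showed another order, with its highest value, 5.75 CPM, in orco_KO replicate 5.

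CPF2 was weakly expressed, at 2.09, 0.863, 4.54, 1.12 and 0.490 CPM in orco_KO replicates 3, 5, 9, 11 and 12, against 0.806, 0.515, 1.16, 0.756 and 1.01 CPM in control replicates 3, 4, 5, 6 and 7. Values in orco_KO lay on both sides of the controls. Its log2 fold change was 1.13 (SE 0.54; edgeR adjusted p = 0.202), and it did not pass in any of the 17 alternative fits that tested it. Without orco_KO replicate 9 it was 0.39.

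Spread between libraries of 1 group was wide for many of these genes. The SD of log2 CPM had a median of 0.75 over orco_KO libraries and 0.82 over control libraries among the 21 tested cuticle protein genes, against 0.33 and 0.40 among all genes tested, which were not matched for level. Control replicates 6 and 7 were both above the other 3 controls for 7 of the 21 (CPR6, CPR14, CPR22, CPR27, CPR28, Cpap3-c and Cpap3-d) and both below for Apd-1, Apd-3 and CPR3. These shares, 33.3% and 14.3%, stand against 26.7% and 24.8% of all genes, so that the number of cuticle genes ordered this way was near or below the background.

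Without control replicates 6 and 7, edgeR called 6 cuticle protein genes higher (CPR6, CPR14, CPR19, CPR27, Cpap3-c and Cpap3-d) and CPR3 and CPR4 lower, among 21 tested. Over all 9179 genes of that fit 2.18% were higher and 7.71% lower. Among cuticle protein genes the count of higher calls was 6 without these libraries and 3 with them, while over all genes it was 200 without them and 421 with them. These libraries were left out because earlier results of the same data had set them apart, and the part of that choice in the count was not tested. They also had the most assigned counts of all libraries (21580111 and 23453690) and the largest scaling factors (1.23 and 1.26). The part of depth or scaling was not tested.

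**Figure D5:**
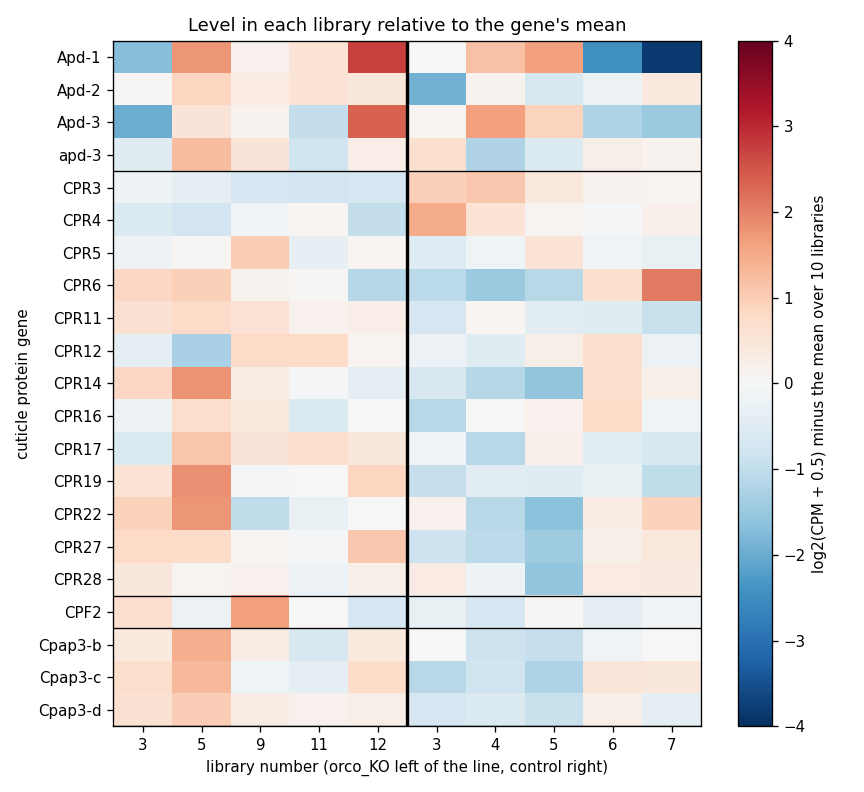
Level of each tested gene in each library as log2(CPM + 0.5) minus the gene's mean over the 10 libraries; columns are libraries (orco_KO left of the line, control right), rows are genes in the order apidermin, CPR, CPF, Cpap3. Orco_KO replicate 5 is high for CPR14, CPR19, CPR22 and the Cpap3 genes, and control replicates 3, 4 and 5 are low for most of these, whereas Apd-1 and Apd-3 follow another order.

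Summed over all 27 genes, cuticle protein reads made up 0.199%, 0.326%, 0.167%, 0.147% and 0.162% of assigned counts in orco_KO replicates 3, 5, 9, 11 and 12, against 0.0668%, 0.0883%, 0.0626%, 0.214% and 0.198% in control replicates 3, 4, 5, 6 and 7. Control replicates 6 and 7 were above orco_KO replicates 9, 11 and 12, and the other controls were below every orco_KO library. CPR14 alone supplied 35.6% to 64.3% of these reads in orco_KO and 35.7% to 66.1% in controls, so the sum largely follows that gene.

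Other genes of cuticle formation were few by symbol. Of 5 tanning and pigment genes 4 were tested. Over all 10 libraries none passed with edgeR, DESeq2 or limma-voom, and none had an unadjusted p below 0.05 (edgeR). PPO, the prophenoloxidase gene of melanin formation, had 1.43 to 63.1 CPM in orco_KO and 2.27 to 20.8 CPM in controls (log2 fold change 1.61, SE 0.77; edgeR adjusted p = 0.205). Y-h, a yellow family gene, had a log2 fold change of 0.77 (SE 0.53). The only gene matched for chitin synthesis and turnover was Gfat2, coding for an enzyme at the entry to amino sugar synthesis, at 47.0 ± 8.43 CPM in orco_KO and 55.7 ± 6.26 CPM in controls (SD, n = 5 each).

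Of 12 hormone genes matched, 8 were tested and Br-c, the ecdysone-induced Broad transcription factor, rose, at 20.2 ± 1.91 CPM in orco_KO and 11.4 ± 3.30 CPM in controls (SD, n = 5 each; log2 fold change 0.84, SE 0.20; edgeR adjusted p = 0.0150). The next smallest p-values were those of Jhe, coding for juvenile hormone esterase (log2 fold change 0.57, adjusted p = 0.121), and E74 (0.42, adjusted p = 0.146). Both subunit genes of bursicon, the hormone that triggers hardening of new cuticle, were near 0, with at most 0.926 CPM for Burs and 0.451 CPM for Pburs in any library. Br-c was lowest in control replicates 6 and 7, at 9.08 and 7.35 CPM. The other controls were at 11.2 to 15.1 CPM and orco_KO libraries at 17.5 to 22.1 CPM. Without control replicates 6 and 7, edgeR called 1 hormone gene higher and 1 lower. Only these counts are given for that fit, not the genes, so they do not show whether Br-c kept its call. Br-c overlaps the microRNA gene Mir3782 for 0.230% of its span on the same strand, and reads in that stretch were not counted.

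Markers of other cell types that a dissected antenna can hold moved with the groups in part, and their part in the cuticle results was not tested. Of 4 muscle markers 1 was higher and 1 lower with edgeR, while 3 were higher by DESeq2 and at an unadjusted p below 0.05 and none was higher without control replicates 6 and 7, with summed levels of 2484 to 6541 CPM in orco_KO and 1896 to 3860 CPM in controls. All 4 neuron markers were lower, with sums of 2141 to 3479 CPM in orco_KO and 4750 to 13030 CPM in controls, and the glial marker Eaat-2 was at most 1.599 CPM in orco_KO and at least 6.24 CPM in controls. Of 5 fat body and haemolymph genes 2 were tested and none passed with edgeR, while 1 was higher by DESeq2 and at an unadjusted p below 0.05, with sums of 20.6 to 82.9 CPM in orco_KO and 5.33 to 98.5 CPM in controls. Of 4 eye markers 2 were tested and 1 was higher (none without control replicates 6 and 7), with sums of 5.75 to 13.3 CPM in orco_KO and 3.09 to 9.24 CPM in controls. The 4 head gland and venom genes summed to at most 0.770 CPM in orco_KO and 0.409 CPM in controls.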

How the data were processed

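Antennal RNA from 5 orco_KO and 5 control libraries was sequenced for 101 cycles from each end after ribosomal RNA removal and stranded library preparation, per the labels' protocols, although the labels name the molecule as polyA RNA. The authors deposited raw counts per gene. The submitters' processing notes name STAR 2.7.3a as the aligner. Per the file headers, featureCounts (Subread 2.0.0) then counted reads over whole gene spans, introns included, with strand setting 2. No option for reads that map to several places was set, so these were left out. Of 12337 features, 5 virus features were set aside, and 12262 of 12332 bee genes were matched to the gene table by coordinates.

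Counts were fitted in R 4.3.3 with edgeR 4.0.16 (filterByExpr, TMM, quasi-likelihood test of orco_KO over control over all 10 libraries, no covariates, threshold 0.05 on Benjamini-Hochberg adjusted p over 9222 genes). Standard errors were derived from the fold change and its F statistic (log2 change over root F). The fit was also run on counts simulated from its own means, dispersions and library sizes, with 200 genes changed by known folds. Such counts hold no shift of many genes within 1 library, so that run checks the computation only. CPM uses TMM-scaled library sizes, and SD of log2 CPM uses a prior count of 2. The 21 tested genes each reached the filter's minimum of 0.682 CPM in at least 3 libraries of both groups. Alternatives were DESeq2 1.42.0, limma-voom (limma 3.58.1), other scalings and filters, and fits that left libraries out. Figures used matplotlib 3.10.9.

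The cuticle protein genes and the lists were chosen with earlier results of these data known. By a fixed rule, values by library are given for each gene called by edgeR, DESeq2 or limma-voom and for the most abundant genes per kilobase of each family. CPR6, CPR22 and the sum over reads on Apd-1 and Apd-2 were chosen after their values were seen. Protein and promoter sequences were not used here.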

Additional observations from a re-analysis of the deposited data

Results flagged for a closer look

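Among 42 groups of 5 libraries examined (21 genes in both groups), 4 held a library whose distance to its nearest neighbour was a large part of the group's range (above Dixon's critical value for groups of 5, which chance gives in about 1 of 20 groups). Apd-3 was at 9.59 CPM in orco_KO replicate 12, against 0 to 2.30 CPM in the other orco_KO libraries. CPR4 was at 11.6 CPM in control replicate 3, against 3.63 to 5.80 CPM in the other controls. CPR5 was at 4.43 CPM in orco_KO replicate 9, against 1.43 to 2.10 CPM in the other orco_KO libraries, and at 3.07 CPM in control replicate 5, against 1.21 to 1.70 CPM in the other controls.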

How the results depend on the processing

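The calls of CPR19 and Cpap3-d held in all 19 alternative fits, and those of CPR11 and CPR3 in each fit that left out 1 library, in which the count of cuticle protein genes was 3 to 4 higher and 1 lower. Only numbers 3 and 5 occur in both groups, and nothing in the labels ties libraries that share a number (correlation of their deviations across genes 0.079 and 0.14). On these 4 libraries 19 cuticle protein genes were tested. The replicate block gave 10 higher and 1 lower, against 418 higher and 565 lower over all genes. The fit without the block gave 9 higher and 0 lower (2 lower at an unadjusted p below 0.05). Over all genes that fit gave 222 higher and 453 lower. Shares over all genes are not given here for these fits. DESeq2 gave 6 higher and 2 lower, and leaving out control replicates 6 and 7 gave 6 and 2. Over all genes the higher calls were 780 by DESeq2, 200 without control replicates 6 and 7 and 250 to 684 when single libraries were left out. Of the tanning, chitin and hormone genes 2 were higher by DESeq2, 1 was lower without control replicates 6 and 7, and 1 to 3 were higher when single libraries were left out. Signs changed for genes that had not passed over all libraries. When single libraries were left out, log2 fold changes ran from -0.91 to 1.21 for Apd-3, -0.0315 to 0.63 for CPR5, -0.45 to 0.79 for CPR6, -0.0664 to 0.46 for CPR12, -0.18 to 0.45 for CPR16 and -0.0675 to 0.28 for CPR28. With the replicate block they were -0.71 for Apd-1, -1.65 for Apd-3, -0.092 for CPR5, 2.06 for CPR6 and -1.07 for CPR12, and without it on the same libraries -0.10, -1.07, -0.24, 2.06 and -1.01 for the same genes. CPR6 was at 0.19 with limma-voom, and without control replicates 6 and 7 Apd-3 was at -0.30 and CPR6 at 1.58. Apd-3, apd-3, CPR5, CPR12, CPR16, CPR17 and CPF2 had both group means below 3 CPM, where relative counting error is larger than for the abundant genes. The cause of these differences was not tested.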
